A study of Mus musculus with 16 samples.

Results

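The comparison set the epididymal fat pad, a visceral white fat depot, of older against younger male mice that carry extra LTA4H (leukotriene A4 hydrolase) and were fed a high-fat diet. Its members were the 8 libraries labelled as this genotype (A-LTA4HOE, called OE here) among the 16 libraries of the series. OE_20wk were 4 OE mice at 20 weeks of age after 16 weeks of the diet, and OE_8wk were 4 OE mice at 8 weeks of age after 4 weeks of it. The diet held 60 kcal% fat and began at 4 weeks of age in every group. The other 8 libraries came from the control mice (Ctrl), 4 at each age on the same diet, and are used only to ask whether an age difference was particular to OE. The labels do not name the promoter or the cells in which the extra gene acts, give no batch and do not say whether animals were pooled, so p-values measure the spread between these samples. Age and time on the diet rose together in every group and cannot be told apart.

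LTA4H converts leukotriene A4, which 5-lipoxygenase and its activating protein make from arachidonic acid, into leukotriene B4, a lipid that draws neutrophils and macrophages through the receptor encoded by Ltb4r1. White fat stores triglyceride in adipocytes, which also secrete adiponectin, leptin, resistin and adipsin. In obesity this tissue is known to gather macrophages, among them lipid-associated macrophages, which surround dying adipocytes, take up their lipid and break it down in lysosomes.

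Total counts ran from 34.2 to 45.4 M (M, units of 10 to the power of 6) in the 8 OE libraries. Levels are given as CPM, counts scaled to library size and composition, in the order of replicates 1 to 4, and each log2 fold change carries its standard error. Values in brackets after a gene are its log2 fold change, 20 over 8 weeks, and then its adjusted p. A total of 3 libraries stood apart. On the first principal component of the OE libraries, with 54.4% of the variance, OE_20wk 1 lay at −18.7 while the other 20-week libraries lay at 75.9 to 94.3, and OE_8wk 1 lay at 26.4 while the other 8-week libraries lay at −110.5 to −63.5. OE_8wk 2 held transcripts of the epididymal duct: 6 of the 20 genes of that list passed the filter, and their summed level was 2774 CPM there, against at most 22.5 CPM in any other OE library. Beside a result that turns on one of these libraries, the value without it is given.

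At 20 weeks, most listed genes of lipid-associated macrophages (15 of 20), lysosomes (28 of 30) and cell division (20 of 20) were higher than at 8 weeks, while most of those of mature adipocytes (11 of 20), branched-chain amino acid breakdown (13 of 18) and mesothelium (10 of 12) were lower. Of 19189 genes tested out of 45777, 2509 (13.1%) rose and 1902 (9.91%) fell, together 23%, at an adjusted p under 0.05 with edgeR's quasi-likelihood test and Benjamini-Hochberg adjustment over all genes tested. Changes of more than 2-fold were found for 1160 rising and 635 falling genes, and of more than 8-fold for 159 and 69. The 4 libraries of 1 age did not overlap the 4 of the other for 4288 genes (22.3%), and 3312 of the called genes (75.1%) were among them. Protein-coding genes rose in 14.4% and fell in 11.2% of cases, long noncoding RNAs in 6.99% and 5.74%, and pseudogenes in 7.59% and 1.92%. Rising genes made up 56.9% of the calls, but 46.0% (2190 higher, 2566 lower) when libraries were scaled by their upper quartile. The count of falling genes was 1014 without OE_20wk 4, 1036 without OE_20wk 2, 1221 without OE_20wk 3, 1134 without OE_8wk 3 and 1242 without OE_8wk 4.

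**Figure D1:**
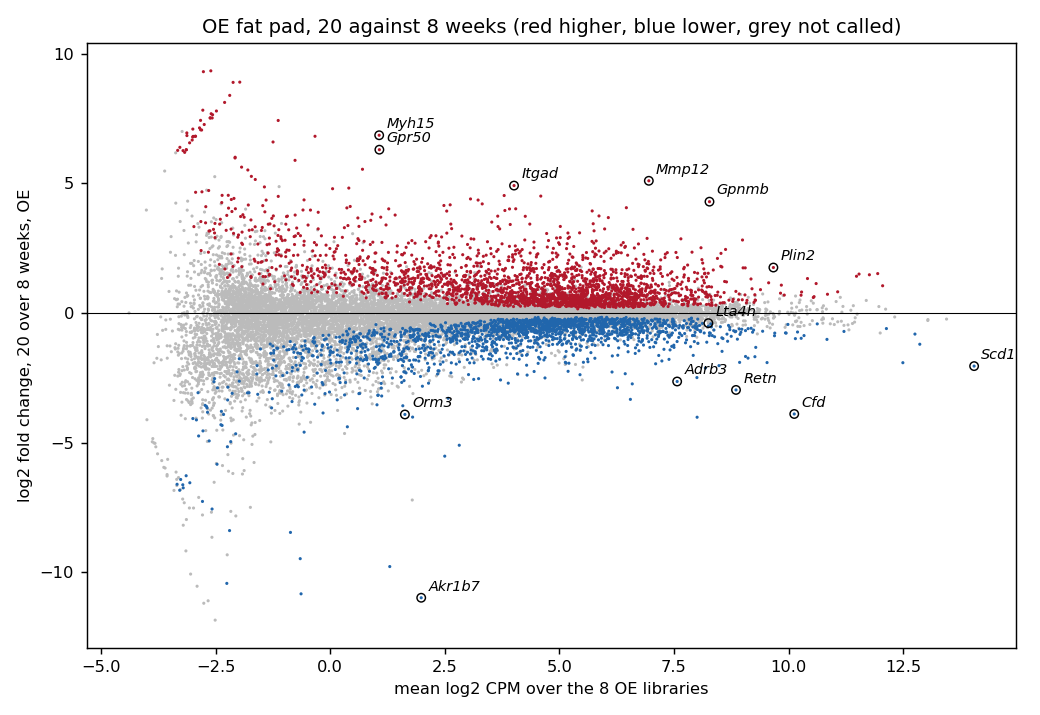
Log2 fold change of each gene tested, 20 over 8 weeks in OE, against its mean log2 CPM over the 8 OE libraries. Red points are the 2509 genes higher at 20 weeks, blue points the 1902 lower and grey points those not called, and circles mark named genes such as Mmp12 at 5.10 and Cfd at −3.90.

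Among the 1795 genes called with more than a 2-fold change, 290 had overlapping ages. OE_20wk 1 reached into the 8-week range for 252 of the 1795 (14.0%), OE_8wk 2 into the 20-week range for 149 and OE_8wk 1 for 128, against 24 to 40 for each of the other 5 libraries. Over the macrophage list OE_20wk 1 averaged 6.52 log2 CPM, where OE_20wk 2 to 4 averaged 7.14 to 7.45. Over the mature adipocyte list it averaged 9.19, where they averaged 7.79 to 8.45. With these 3 libraries left out, 2867 genes rose and 2608 fell, and 3859 of the 4411 calls (87.5%) were kept in the same direction. OE_20wk 1 and OE_8wk 1 were singled out because they lay toward the other age. Leaving them out therefore tends to widen the age difference, so values without the 3 libraries are not an independent check on it.

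Lta4h itself (gene ID 16993, mm10 chromosome 10, 93453396 to 93484896) was high at both ages in OE. It had 270.3, 286, 278 and 239 CPM at 20 weeks and 398, 251, 427 and 335 CPM at 8 weeks, so the lowest library of all was the older replicate 4 and the ages overlapped. Its log2 fold change was −0.39 ± 0.14 (adjusted p = 0.0522), not called (two-sided exact permutation p = 0.114). It fell by 0.53 without OE_8wk 2 (adjusted p = 0.00366) and was also called with DESeq2 (0.0154), voom (0.0149), RLE scaling (0.0404) and upper-quartile scaling (0.0210). The Ctrl libraries, at 79.4 to 104 CPM over both ages, lay below all 8 OE libraries.

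The genes of the leukotriene pathway moved apart from each other. Of 18 tested, Lta4h among them, 4 rose, 3 fell and 11 were not called, with a median of −0.25 against −0.03 over all genes. Without the 3 libraries that stood apart, 7 fell. Upstream of LTA4H, Alox5ap, the activating protein of 5-lipoxygenase, had 49.0, 98.6, 67.5 and 97.9 CPM at 20 weeks and 44.3, 47.6, 37.0 and 38.3 CPM at 8 weeks. All of its older libraries lay above the younger ones, and it rose by 0.90 ± 0.22 (adjusted p = 0.00896). Alox5, the 5-lipoxygenase, was not called, at −0.29 ± 0.13 (adjusted p = 0.139), and neither was Pla2g4a, the phospholipase that frees arachidonic acid, at −0.25 ± 0.44 (0.715; 0.29 and 0.732 without the 3 libraries).

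Ltb4r1, the leukotriene B4 receptor gene, had 1.35, 1.83, 1.36 and 1.22 CPM at 20 weeks and 5.15, 2.96, 4.14 and 5.0 CPM at 8 weeks. The ages did not overlap, and it fell (−1.58 ± 0.26 on the log2 scale, adjusted p = 0.00117). Alox15, a lipoxygenase of resident peritoneal macrophages, fell from 17.0, 19.8, 11.6 and 12.6 CPM to 1.45, 5.98, 1.34 and 3.49 CPM (−2.31 ± 0.44, adjusted p = 0.00237). On the side of the cysteinyl leukotrienes, Dpep2, a dipeptidase that acts on leukotriene D4, had 37.2, 91.6, 72.8 and 97.1 CPM at 20 weeks against 11.4, 23.3, 7.16 and 11.4 CPM at 8 weeks and showed the highest rise of the list (2.49 ± 0.37, adjusted p = 6.76e-04). Ggt5, which trims leukotriene C4, rose by 0.54 ± 0.13 (0.0100; 0.40 and 0.0892 without the 3 libraries). Cysltr1, a cysteinyl leukotriene receptor, rose by 0.48 ± 0.16 (0.0467) and Mgst3, a microsomal glutathione transferase, fell (−0.72 ± 0.23, 0.0376), but Cysltr1 was not called in 12 and Mgst3 in 7 of the 16 fits that each left out 1 library. The leukotriene C4 synthase gene Ltc4s was not called (0.12 ± 0.30, 0.805).

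The 3 genes that mark the comparison did not overlap between the ages. Itgad (mm10 chromosome 7, 128173933 to 128205504), the integrin alpha D chain of macrophages, had 98.5, 95.4, 88.8 and 119 CPM at 20 weeks and 3.05, 7.11, 0.799 and 2.38 CPM at 8 weeks. The lowest older library was more than 10-fold above the highest younger one, and the log2 fold change was 4.91 ± 0.51 (adjusted p = 1.31e-04). Mmp12 (chromosome 9, 7344397 to 7360461), the elastase secreted by macrophages, had 345, 890.2, 544 and 1937 CPM at 20 weeks and 38.5, 50.8, 6.92 and 12.3 CPM at 8 weeks. It rose by 5.10 ± 0.91 (0.00165), with a wide spread inside each age and no overlap between them. Cfd (chromosome 10, 79890853 to 79892655), which encodes adipsin, the complement factor D that adipocytes secrete, had 530.3, 250.2, 267 and 188 CPM at 20 weeks and 3047, 3531, 7176 and 4657 CPM at 8 weeks. Every older library lay below every younger one, and it fell, with a log2 fold change of −3.90 ± 0.48 (3.20e-04). For each of these 3 genes the two-sided exact permutation p was 0.0286, the smallest that 4 against 4 allows. Ages that do not overlap always give this value, and the genes were chosen as markers of the comparison, so it adds no support.

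**Figure D2:**
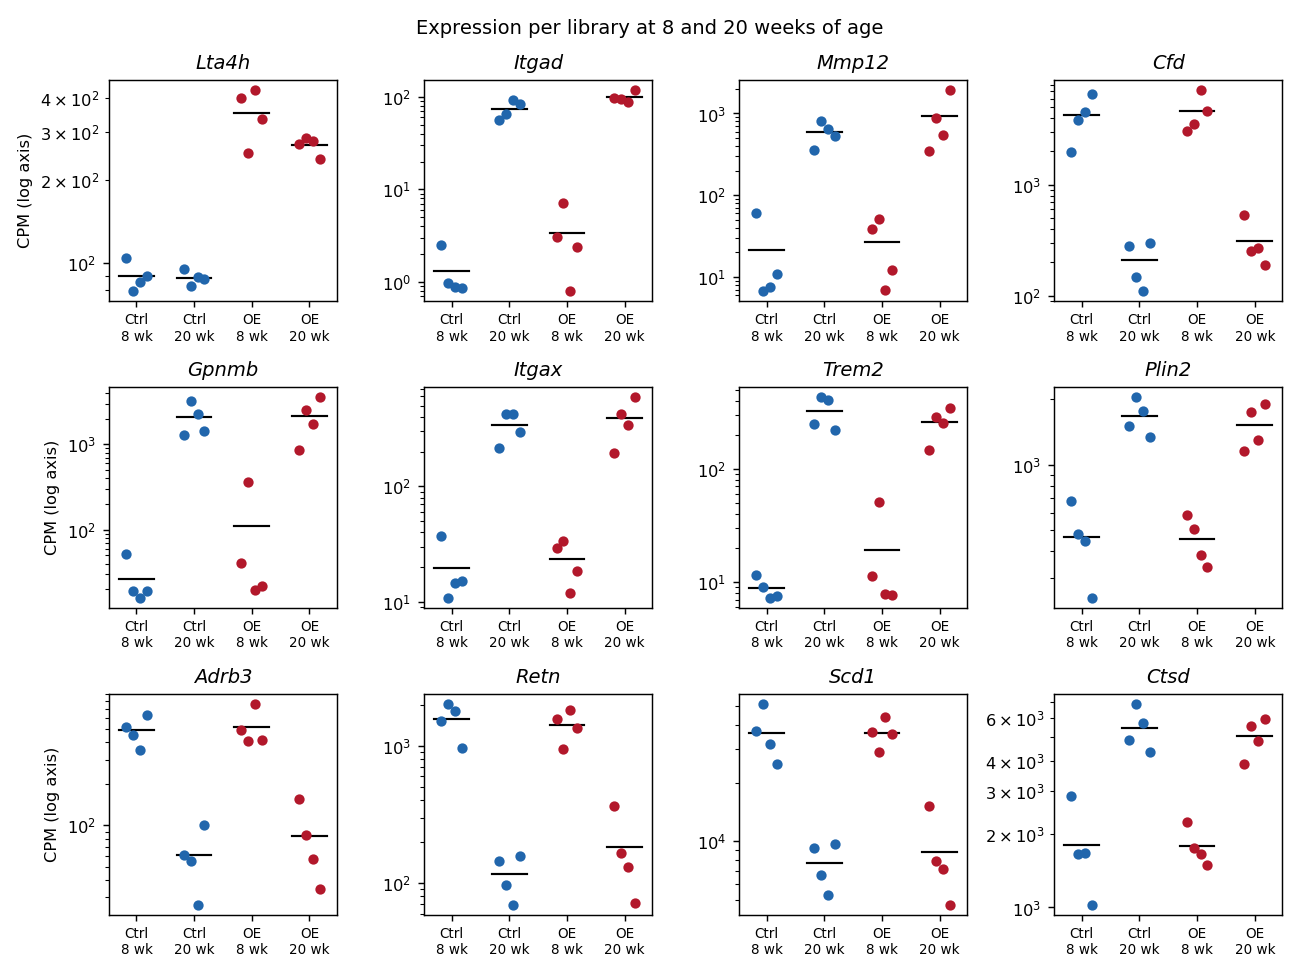
Level of 12 genes in CPM (log axis) in each library of the 4 groups, with Ctrl in blue, OE in red and the group mean as a line. Lta4h is above all Ctrl libraries at both ages in OE, while Itgad, Mmp12, Gpnmb, Itgax, Trem2, Plin2 and Ctsd are higher and Cfd, Adrb3, Retn and Scd1 lower at 20 weeks.

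On the per-length scale of the authors' TPM, the most abundant transcript was the same at both ages: Fabp4, the fatty acid binding protein of adipocytes, at 28479 TPM at 8 weeks and 24478 TPM at 20 weeks. Cfd moved from rank 6 to rank 199 (10193 to 716 TPM). Scd1, the stearoyl-CoA desaturase, moved from rank 4 to 30, and Car3, the carbonic anhydrase of adipocytes, from rank 3 to 20. In the other direction, Ftl1, the ferritin light chain, went from rank 32 to 3, Hp, haptoglobin, from rank 26 to 4, and the lysosomal genes Ctsd and Psap from ranks 58 and 59 to 12 and 15.

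The 12 rises and 12 falls named next came from called genes without overlap between the ages and with mean log2 CPM not under 1. Predicted and clone names were left out. Of the 12 genes with the highest fold rise among these, Myh15, a myosin heavy chain, led. It had 25.7, 42.1, 52.2 and 40.9 CPM at 20 weeks and 0, 1.43, 0 and 0 CPM at 8 weeks, where 3 of 4 libraries held no read, and rose by 6.85 ± 1.13 on the log2 scale (adjusted p = 0.00110). That value and its rank rest on OE_8wk 2, without which every younger library is at 0 and the fitted value is 13.73, which depends on the prior count. Gpr50, an orphan receptor related to the melatonin receptors, had 21.8, 15.1, 36.6 and 11.1 CPM at 20 weeks and at most 0.396 CPM at 8 weeks (6.30 ± 0.77, 3.11e-04). Tph2, a tryptophan hydroxylase best known from serotonin neurons, had 99.8, 71.8, 109.9 and 64.5 CPM against 11.0, 1.21, 1.15 and 1.57 CPM, so that it rose by 4.53 ± 0.98 (0.00504). Zranb3, a helicase that remodels stalled replication forks, had 63.2, 145, 101 and 186 CPM against 3.34, 9.19, 3.96 and 5.28 CPM and rose by 4.51 ± 0.44 (1.31e-04).

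All 12 had at least 11.1 CPM in every older library. Gpnmb, a glycoprotein of lipid-laden macrophages, was the most abundant of the 12, with 850.4, 2523, 1730.0 and 3584 CPM at 20 weeks and 40.7, 362, 19.7 and 21.8 CPM at 8 weeks (4.29 ± 0.92, 0.00485), and its younger replicate 2 stood above the other 3. Its log2 fold change was 6.31 without that library and 6.98 without the 3 libraries. Tm4sf19, a tetraspan-like membrane protein gene of osteoclasts and macrophages, rose by 4.20 ± 0.87 (0.00399; 7.30 without the 3 libraries). Gnal, the olfactory type of G protein alpha subunit, rose by 4.35 ± 0.40 (1.31e-04). Its highest older value, 60.4 CPM, was in OE_20wk 1 and its lowest, 19.9 CPM, in OE_20wk 4, whereas Mmp12 and Gpnmb were lowest in OE_20wk 1 and highest in OE_20wk 4. Fat3, an atypical cadherin, rose by 4.17 ± 0.75 (0.00181), Tfr2, the second transferrin receptor, by 4.14 ± 0.47 (1.87e-04), and Vsig8, an immunoglobulin-domain membrane protein gene, by 4.40 ± 0.73 (0.00119).

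Of the 12 genes with the highest fold fall among those without overlap, 4 lost their call without OE_8wk 2, the library with epididymal transcripts. They also lost it without OE_20wk 2, 3 or 4, where the fold stayed near that of all libraries. Akr1b7, an aldo-keto reductase known from vas deferens and adrenal, had 1.39, 4629.7, 4.88 and 25.8 CPM at 8 weeks and at most 1.14 CPM at 20 weeks. Its log2 fold change was −10.99 ± 3.39 (0.0314) with all libraries, −4.23 (0.200) without OE_8wk 2 and −10.72 (0.0574) without OE_20wk 1. P2rx1, an ATP-gated channel of smooth muscle, went from −4.02 ± 1.21 to −1.92 (adjusted p = 0.156), Pdlim3, a muscle scaffold protein, from −3.29 ± 0.96 to −2.01 (0.0947), and Cldn3, an epithelial claudin, from −3.17 ± 0.96 to −2.27 (0.0860). Without 1 of OE_20wk 2, 3 and 4 the adjusted p was 0.0800 to 0.0881 for Akr1b7, 0.0717 to 0.0849 for P2rx1, 0.0689 to 0.0750 for Pdlim3 and 0.0805 to 0.0824 for Cldn3. The part of the epididymal transcripts in these falls was not tested further.

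The other 8 falls kept their call without OE_8wk 2. Cyp2e1, a cytochrome P450 that oxidises ethanol and ketones, had 108, 41.1, 79.9 and 52.2 CPM at 20 weeks and 541, 847, 2157 and 1026 CPM at 8 weeks, a log2 fold change of −4.02 ± 0.51 (3.65e-04). Retn, which encodes resistin, had 362, 165, 131 and 71.2 CPM against 1581, 952, 1829 and 1354 CPM (−2.97 ± 0.44, 6.98e-04), and Agt, angiotensinogen, 34.9, 19.3, 41.7 and 21.8 CPM against 169, 165, 283 and 254 CPM (−2.89 ± 0.28, 1.31e-04). In all 3 genes the highest older library lay below the lowest younger one. Orm3, an orosomucoid, fell by 3.92 on the log2 scale (1.31e-04) and Serpina3b, a serine protease inhibitor, by 3.58 (0.00187). Both belong to families of similar copies, so the split of reads between copies is uncertain. Ptn, the growth factor pleiotrophin, had a log2 fold change of −3.20 ± 0.76 (0.00827) and Angptl7, an angiopoietin-like protein, one of −3.54 ± 0.74 (0.00401; −2.45 and 0.0538 without the 3 libraries).

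The next paragraphs follow 39 gene lists with 720 different genes. A list's count is to be read against the 13.1% of all genes that rose and the 9.91% that fell, and its median against −0.03.

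**Figure D3:**
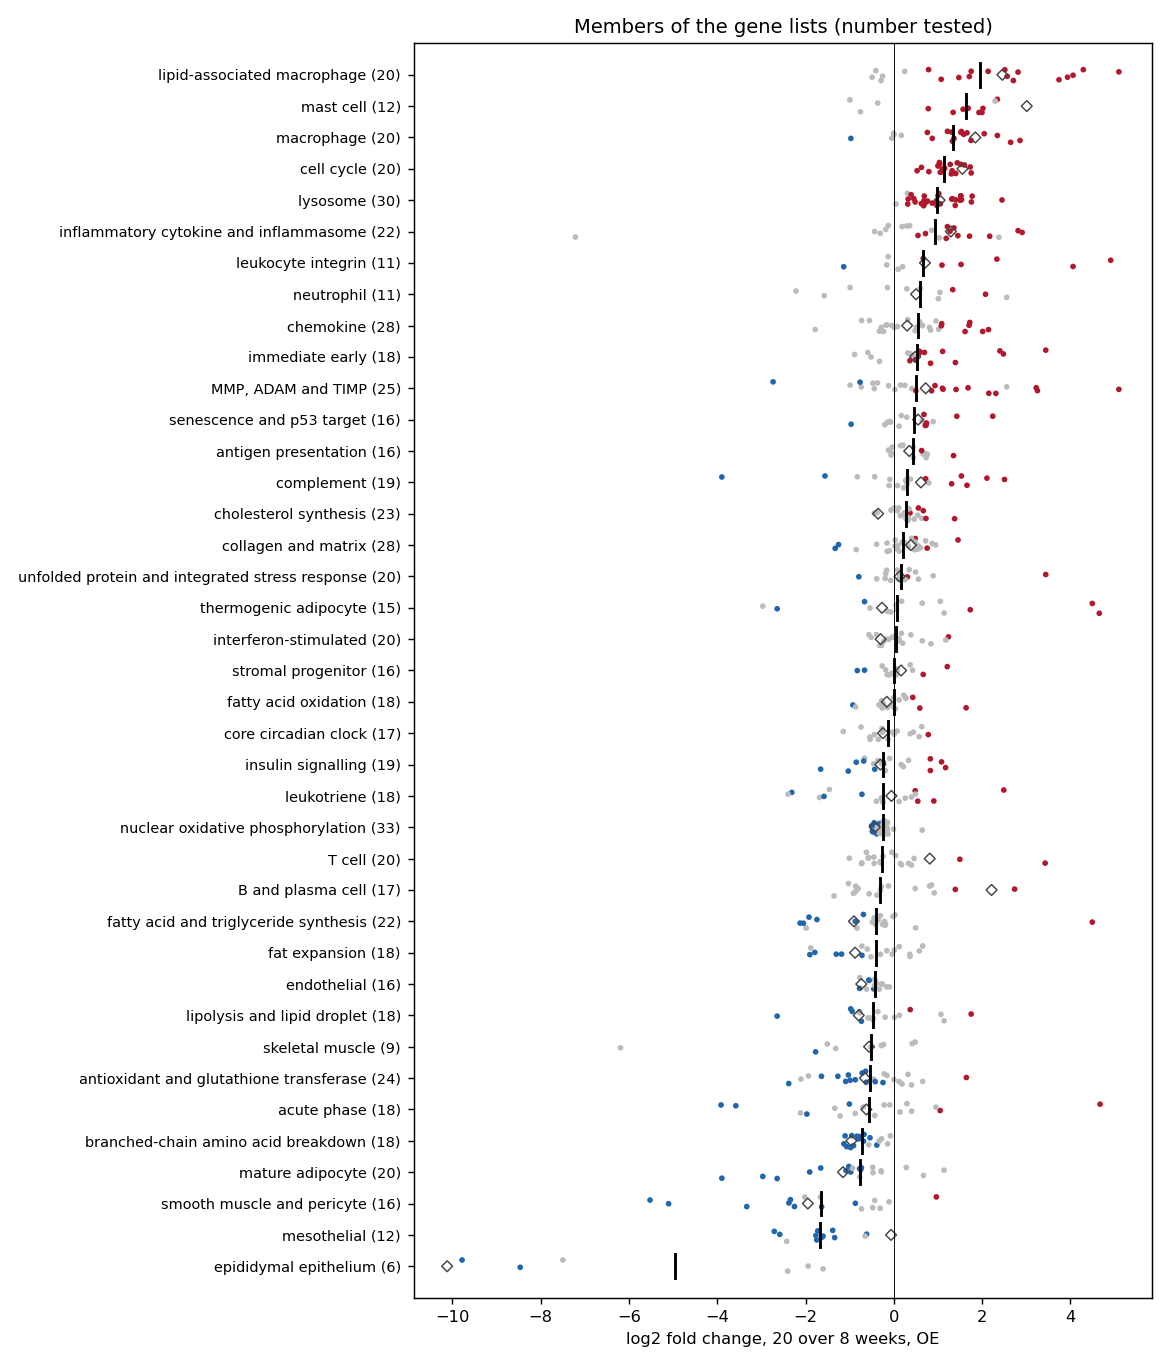
Log2 fold change, 20 over 8 weeks in OE, of each tested member of the 39 lists, ordered by median, with red for rose, blue for fell and grey for not called. Black bars are OE medians and open diamonds Ctrl medians; lipid-associated macrophage genes are at the top with an OE median of 1.94, and mesothelial, smooth muscle and epididymal genes at the bottom.

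Macrophage genes were higher at 20 weeks. Of 20 lipid-associated macrophage genes, 15 rose and 0 fell, with a median of 1.94. Of 20 general macrophage genes 15 rose and 1 fell, with a median of 1.34. Itgax, the CD11c integrin chain, had 196, 423, 340.0 and 594 CPM at 20 weeks and 29.2, 33.7, 11.9 and 18.4 CPM at 8 weeks (4.06 ± 0.48, 2.77e-04). Ctsk, cathepsin K, had 128, 253, 192 and 306 CPM against 27.9, 52.9, 32.0 and 35.7 CPM (2.57 ± 0.27, 1.31e-04), and Lipa, the lysosomal acid lipase that frees fatty acids from taken-up lipid, 385, 730.3, 649 and 997 CPM against 112, 200, 85.3 and 86.6 CPM (2.51 ± 0.33, 4.34e-04). In each of these the lowest older library was OE_20wk 1. The 5 members that were not called were Cd36, Lpl, Fabp4, Apoe and Acp5, with log2 fold changes of 0.25 to −0.50; adipocytes also express the first 3 strongly.

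Among the general markers, Cd68, a lysosomal membrane protein of macrophages, had 307, 675, 564 and 799 CPM at 20 weeks and 70.3, 149, 51.4 and 52.5 CPM at 8 weeks (2.86 ± 0.40, 5.20e-04), while the complement C1q chains C1qb and C1qc rose by 1.66 ± 0.24 and 1.53 ± 0.22. Cd163, the haemoglobin scavenger receptor of resident macrophages, fell (−0.97 ± 0.19, 0.00262), the only member to do so, and Ccr2, Cx3cr1, Mertk and Cd86 were not called, at −0.05 to 0.17. In whole tissue, more cells of a type and more RNA per cell cannot be told apart. The summed macrophage level was 4023 to 9098 CPM at 20 weeks and 2077 to 3522 CPM at 8 weeks.

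Leukocyte integrins followed: 6 of 11 rose and 1 fell, with a median of 0.66. Beside Itgad and Itgax, Itgb2, the beta chain with which both pair, had 216, 507, 352 and 751 CPM at 20 weeks and 92.3, 148, 54.2 and 67.7 CPM at 8 weeks (2.33 ± 0.42, 0.00187). Itgae, the alpha E chain of intraepithelial lymphocytes, fell (−1.14 ± 0.25, 0.00551).

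Lysosomal genes rose nearly as a whole, 28 of 30 with 0 falling and a median of 0.97. Tfeb, a transcription factor that activates lysosomal genes, had 22.7, 33.6, 34.8 and 39.7 CPM at 20 weeks and 15.6, 16.9, 15.3 and 15.2 CPM at 8 weeks (1.05 ± 0.15, 5.51e-04), and its libraries did not overlap. Atp6v1b2 and Atp6v1a, subunits of the proton pump that acidifies lysosomes, rose by 1.53 ± 0.20 (4.59e-04) and 1.33 ± 0.18 (5.20e-04). Ctsd, cathepsin D, rose by 1.5 ± 0.27 (0.00165), Ctsa, the protective protein of lysosomal galactosidase and neuraminidase, by 1.51 ± 0.22 (6.44e-04) and Mcoln1, a lysosomal calcium channel, by 0.48 ± 0.09 (0.00272). Gaa and Ctsc were not called, at 0.31 and 0.05. The list counted 26 to 28 rising members with any 1 of the libraries that stood apart, or all 3, left out, and 24 without OE_20wk 4.

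The promoters of the lysosomal genes are shown because the list holds its own regulator. TFEB and its relatives bind the letters TCACGTGA, which read the same on both strands. RefSeq windows of 300 bases, from 250 before to 50 after a start site, were at hand for 21 of the 28 risen genes (27 windows). These letters stood in 5 of the 27 (18.5%), against 1.53% of the 17881 windows of genes tested and 0.974% of all 32851 windows. The windows of 4 of the 5 genes follow, 5′ to 3′ in the direction of the gene, with the matches in capitals, on GRCm38.p6 (the assembly of mm10): Ctsa chr2:164833523-164833822, plus strand, with 2 matches that begin 13 bases before and 4 after the start; Ctsd chr7:142387778-142388077, minus strand, 99 bases before; Atp6v1a chr16:44139210-44139509, minus strand, 132 before; and Mcoln1 chr8:3500269-3500568, plus strand, 46 before.
Ctsa: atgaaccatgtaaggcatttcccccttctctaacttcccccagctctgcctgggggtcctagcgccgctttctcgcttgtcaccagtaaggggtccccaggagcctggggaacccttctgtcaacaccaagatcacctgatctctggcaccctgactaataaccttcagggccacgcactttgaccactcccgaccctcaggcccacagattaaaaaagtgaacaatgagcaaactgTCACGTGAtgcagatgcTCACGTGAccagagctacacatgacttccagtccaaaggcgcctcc
Ctsd: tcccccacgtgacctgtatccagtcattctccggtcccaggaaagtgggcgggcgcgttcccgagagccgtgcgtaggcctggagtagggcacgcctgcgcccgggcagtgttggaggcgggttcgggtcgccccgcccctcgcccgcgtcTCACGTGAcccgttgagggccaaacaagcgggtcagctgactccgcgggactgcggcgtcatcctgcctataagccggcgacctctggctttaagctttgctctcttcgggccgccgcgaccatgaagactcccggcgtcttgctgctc
Atp6v1a: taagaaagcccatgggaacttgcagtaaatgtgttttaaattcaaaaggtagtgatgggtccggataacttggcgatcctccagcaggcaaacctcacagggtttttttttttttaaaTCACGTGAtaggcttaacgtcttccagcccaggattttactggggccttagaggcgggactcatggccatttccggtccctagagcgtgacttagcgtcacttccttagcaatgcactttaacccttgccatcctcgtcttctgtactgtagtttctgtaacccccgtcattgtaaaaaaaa
Mcoln1: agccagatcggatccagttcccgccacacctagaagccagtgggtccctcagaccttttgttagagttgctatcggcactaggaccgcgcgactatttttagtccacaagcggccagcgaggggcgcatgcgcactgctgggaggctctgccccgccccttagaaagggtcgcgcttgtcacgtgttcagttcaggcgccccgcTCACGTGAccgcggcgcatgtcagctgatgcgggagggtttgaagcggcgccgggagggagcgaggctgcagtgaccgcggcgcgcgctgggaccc
The fifth gene was Atp6v0d1. The same letters were in 0 of 13 windows of risen lipid-associated macrophage genes, 0 of 17 of cell cycle genes and 0 of 13 of fallen adipocyte genes. The search covered 5 motifs in 8 sets of windows, chosen after the list results were known and without a test, so these shares are a description, and a match is not evidence of binding. Lysosomal genes that did not rise were not searched as a set, so the lysosomal share cannot be tied to the rise.

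Matrix-degrading enzymes and their inhibitors moved in both directions, with 12 of 25 rising and 2 falling and a median of 0.50. Mmp3, stromelysin-1, had 11.3, 20.1, 22.3 and 27.1 CPM at 20 weeks and 2.50, 1.43, 3.22 and 1.35 CPM at 8 weeks (3.25 ± 0.43, 4.43e-04). Mmp11, stromelysin-3, had 41.0, 27.4, 39.7 and 26.0 CPM against 7.88, 8.14, 7.78 and 6.40 CPM, a log2 fold change of 2.15 ± 0.18 with the smallest adjusted p of any gene named here (5.83e-05). The 2 that fell were the inhibitors Timp3 (−0.77 ± 0.11, 5.51e-04) and Timp4 (−2.74 ± 0.41, 6.76e-04), while Timp1 rose by 2.31 ± 0.50 (0.00518). Without OE_20wk 1, 13 members rose and 4 fell, and without OE_20wk 4, 9 rose.

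The AP-1 letters TGANTCA were found close before start sites of Mmp12 and Mmp3, which both rose. They stood in 4 of 13 windows of the risen lipid-associated macrophage genes (30.8%; Gpnmb, Itgax, Trem2 and Mmp12), in 3 of 27 lysosomal windows (11.1%), and in 5.93% of windows of genes tested and 7.81% of all. The second Mmp12 window (chr9:7347124-7347423, plus strand) has the match 44 bases before the start, and the Mmp3 window (chr9:7445572-7445871, plus strand) 46 bases before it.
Mmp12: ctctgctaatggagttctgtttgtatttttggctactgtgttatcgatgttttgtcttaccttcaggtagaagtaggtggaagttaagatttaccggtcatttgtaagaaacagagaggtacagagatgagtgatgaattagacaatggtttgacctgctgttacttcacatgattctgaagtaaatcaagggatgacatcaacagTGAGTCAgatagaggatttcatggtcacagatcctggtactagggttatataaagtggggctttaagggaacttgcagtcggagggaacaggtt
Mmp3: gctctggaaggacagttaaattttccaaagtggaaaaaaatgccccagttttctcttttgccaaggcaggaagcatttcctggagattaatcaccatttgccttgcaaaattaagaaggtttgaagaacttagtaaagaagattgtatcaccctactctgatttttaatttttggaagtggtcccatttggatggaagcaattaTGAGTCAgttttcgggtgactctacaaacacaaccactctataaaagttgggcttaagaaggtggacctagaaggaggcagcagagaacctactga
The PU.1 letters GAGGAAGT, searched on both strands, stood in 2 of the 13 macrophage windows (15.4%), in 5.60% of windows of all genes called higher and in 3.17% of those of genes tested. AGGTCAAAG, a nuclear receptor motif, stood in 0 windows of these lists, and the E2F letters GCGGGAAA in 1 of 17 cell cycle windows and 1 of 13 macrophage windows. None of the 5 motifs was in any of the 13 windows of fallen adipocyte genes.

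Mast cell genes rose in 8 of 12 cases with 0 falling and a median of 1.63. Mcpt4, a mast cell chymase, had 17.0, 32.6, 26.5 and 29.1 CPM at 20 weeks and 4.29, 8.38, 7.87 and 5.89 CPM at 8 weeks (2.0 ± 0.37, 0.00214). Tpsb2, a tryptase with a close copy, rose by 2.02 ± 0.43 (0.00486), and Fcer1a, the IgE receptor alpha chain, by 2.34 ± 0.56 (0.00906). Tpsab1, the close copy of Tpsb2, was not called at 2.29, and neither were Kit, Hdc and Gata2, which other cells also express, at −0.37 to −1.0. The count was 5 without OE_20wk 2, OE_20wk 4 or OE_8wk 4.

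Few lymphocyte genes passed the test. Of 20 T cell genes 2 rose, Il7r (3.43 ± 0.54, 8.58e-04), the interleukin-7 receptor, which other cells can express, and Trac (1.49 ± 0.48, 0.0373), a T cell receptor constant region that was not called without OE_8wk 1 (adjusted p = 0.0616), without OE_8wk 2 (0.0824) or without any 1 of OE_20wk 2, 3 and 4 and OE_8wk 3. The median was −0.27, and 0.03 without OE_8wk 4, whereas the summed T cell level was 76.7 to 157 CPM at 20 weeks and 39.2 to 68.7 CPM at 8 weeks, with no overlap. Of 17 B and plasma cell genes 2 rose, Cd22 (2.73 ± 0.49, 0.00165) and Sdc1 (1.39 ± 0.33, 0.00799), with a median of −0.30 (−0.76 without OE_20wk 2, −0.05 without OE_8wk 2), while the B cell genes Ms4a1 and Cd79a were not called, at −0.92 and −0.87. Of 11 neutrophil genes 2 rose, S100a8, with 15.2, 16.0, 22.2 and 15.8 CPM against 5.40, 4.34, 2.78 and 3.89 CPM (2.08 ± 0.27, 3.69e-04), and Il1r2 (1.33 ± 0.34, 0.0120). The neutrophil median was 0.60 and turned to −0.70 without OE_20wk 2. Without the 3 libraries 4 neutrophil genes rose.

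Inflammatory signalling genes rose in part. Of 22 cytokine and inflammasome genes 11 rose and 0 fell, with a median of 0.94. The rising count was 14 without OE_8wk 2, 16 without the 3 libraries that stood apart, and 8 without OE_20wk 4 or OE_8wk 4. The summed level was 1152 CPM in OE_8wk 2, above the 506 to 1051 CPM of the 20-week libraries. Tlr8, a sensor of RNA in endosomes, had 67.0, 147, 113 and 158 CPM at 20 weeks and 25.4, 42.3, 19.9 and 20.0 CPM at 8 weeks (2.17 ± 0.30, 5.38e-04). Casp1, the inflammasome protease, rose by 1.71 ± 0.25 (6.30e-04) and Tgfb1, transforming growth factor beta, by 1.21 ± 0.20 (0.00126). Il6, Il1b and Nos2 were not called, at 0.18, −0.31 and −0.44, and Il6 had a mean of 0.362 CPM at 20 weeks.

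Chemokine and receptor genes rose in 7 of 28 cases with a median of 0.54, among them Ccl9 (1.70 ± 0.40, 0.00836) and Cxcl16 (1.07 ± 0.25, 0.00841). That count ran from 3 without OE_20wk 2, OE_20wk 4 or OE_8wk 4 to 9 without OE_20wk 1. Interferon-stimulated genes stayed near the level of all genes, with 1 of 20 rising (Oas1a, 1.24 ± 0.33, 0.0158; not called without OE_20wk 2, OE_8wk 3 or OE_8wk 4) and a median of 0.06 (−0.13 without OE_20wk 2). Antigen presentation genes rose in 2 of 16 cases, H2-DMb1 (1.35 ± 0.25, 0.00202) and H2-K1 (0.63 ± 0.21, 0.0430), and in 7 without OE_20wk 1. Only 1 rose without any 1 of the OE_8wk libraries, of OE_20wk 2 to 4 or of Ctrl_20wk 2 to 4. H2-K1 was not called in 11 of the 16 fits that each left out 1 library (adjusted p = 0.0936 without OE_8wk 2), nor without the 3 (0.175). H2 genes are similar to each other, so their reads may be split. Of 19 complement genes 6 rose and 2 fell: C3ar1 and C5ar1, the anaphylatoxin receptors, rose by 2.51 ± 0.40 and 2.11 ± 0.40, while C2 (−1.56 ± 0.24, 8.52e-04) fell beside Cfd.

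All 20 cell cycle genes rose, with a median of 1.13, and 16 to 20 rose in every fit run but the one that asked for more than a 1.5-fold change (7). Pcna, the replication clamp, had 83.3, 129, 116 and 149.9 CPM at 20 weeks and 59.4, 63.0, 50.1 and 50.8 CPM at 8 weeks (1.10 ± 0.17, 8.47e-04), and its libraries did not overlap. Birc5, survivin, rose by 1.75 ± 0.31 (0.00150) and Rrm2, a ribonucleotide reductase subunit, by 1.32 ± 0.24 (0.00185).

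Immediate early genes, which respond to stress and handling within minutes, rose in 11 of 18 cases with 0 falling and a median of 0.53, and in 7 without OE_20wk 2, OE_20wk 4, OE_8wk 3 or OE_8wk 4. Atf3, a stress-induced factor, had 94.4, 221, 166 and 280.3 CPM at 20 weeks and 21.3, 27.0, 9.23 and 12.6 CPM at 8 weeks (3.44 ± 0.43, 3.63e-04), and Fos had 57.5, 95.6, 85.1 and 113 CPM against 15.9, 22.9, 8.72 and 15.3 CPM (2.48 ± 0.34, 5.22e-04). Nr4a1, Nr4a2, Ier3 and Fosb, of the same class, were not called, at −0.33 to −0.89. Senescence and p53 target genes rose in 6 of 16 cases and fell in 1, with Gdf15, a stress cytokine, at 2.24 ± 0.45 (0.00344) and Mdm2 at 0.74 ± 0.15 (0.00418). Cdkn2a and Cdkn1a, which encode p16 and p21, were not called, at 0.64 and 0.29, and Cdkn2c fell (−0.97 ± 0.25, 0.0128). Of 20 genes of the unfolded protein and integrated stress responses 2 rose and 1 fell, with a median of 0.17. Without OE_20wk 1, 6 rose. Without any 1 of OE_20wk 2 to 4, OE_8wk 2 to 4, Ctrl_20wk 2, Ctrl_20wk 4 and Ctrl_8wk 3, 1 rose.

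Mature adipocyte genes were lower at 20 weeks, with 11 of 20 falling and 0 rising and a median of −0.78. Adrb3, the beta-3 adrenergic receptor that triggers lipolysis, had 157, 84.9, 56.9 and 34.7 CPM at 20 weeks and 496, 410.4, 762 and 414 CPM at 8 weeks (−2.64 ± 0.46, 0.00140). Slc2a4, the insulin-responsive glucose transporter GLUT4, had 73.2, 32.2, 40.0 and 23.2 CPM against 136, 106, 161 and 128 CPM (−1.66 ± 0.32, 0.00263). Adipoq, adiponectin, fell by 1.02 on the log2 scale (0.0304), and Pparg, the master regulator of adipocytes, by 0.75 (0.00404), whereas Lep, leptin, at 0.28 ± 0.43, Fabp4, at −0.29 ± 0.24, and Cebpa, at −0.47 ± 0.19, were not called. The count ran from 7 without OE_20wk 4 or OE_8wk 3 to 14 without OE_20wk 1, the library with the highest adipocyte list mean of its age.

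Genes of fat synthesis fell in 6 of 22 cases and rose in 1, with a median of −0.40. The falling count was 9 without OE_20wk 1 or OE_8wk 2, and 4 without OE_20wk 2, OE_20wk 4 or OE_8wk 3. Scd1, which makes monounsaturated fatty acids, had 15297, 7865, 7174 and 4709 CPM at 20 weeks and 36654, 28946, 43833 and 35775 CPM at 8 weeks (−2.05 ± 0.34, 0.00118), and OE_20wk 1 was the highest of the older libraries. Thrsp, a lipogenic nuclear protein, fell by 2.12 on the log2 scale (0.00101) and Mogat1, an acyltransferase of triglyceride synthesis, by 1.92 (0.00507). Fasn, fatty acid synthase, and Acly, ATP citrate lyase, were not called, at −0.19 and −0.21. The riser was Elovl3, an elongase of brown fat, from at most 0.198 CPM at 8 weeks to 0.785, 2.72, 3.88 and 1.6 CPM at 20 weeks.

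Among lipid droplet and lipolysis genes, 2 of 18 rose and 5 fell. The risers were Plin2, the droplet coat protein of many cell types including foamy macrophages, with 1154, 1742, 1305 and 1903 CPM at 20 weeks and 586, 508, 382 and 338 CPM at 8 weeks (1.75 ± 0.28, 9.68e-04), and Plin3 (0.37 ± 0.09, 0.00978). The adipocyte coat protein gene Plin1 fell instead (−0.78 ± 0.24, 0.0334), as did Lipe, hormone-sensitive lipase (−0.98 ± 0.26, 0.0151), and Pnpla2, adipose triglyceride lipase (−0.74 ± 0.22, 0.0265). Without OE_20wk 1, 8 fell, and without OE_20wk 4 or OE_8wk 3, 1 fell.

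Branched-chain amino acid breakdown fell in 13 of 18 genes with 0 rising and a median of −0.73. Bcat2, the first enzyme of the pathway, had 81.9, 66.7, 67.2 and 58.8 CPM at 20 weeks and 119.9, 106, 181 and 125 CPM at 8 weeks (−0.95 ± 0.17, 0.00153). Acadsb, which dehydrogenates a product of isoleucine, fell by 1.07 on the log2 scale (0.00155) and Dbt, a subunit of the branched-chain keto acid dehydrogenase, by 0.98 (0.00219). The count was 8 without OE_20wk 2, OE_20wk 4 or OE_8wk 3. Nuclear genes of oxidative phosphorylation fell in 7 of 33 cases and rose in 0, each by a small step such as that of Cox6c (−0.49 ± 0.09, 0.00225), with a median of −0.25. That count ran from 2 without OE_20wk 4 or OE_8wk 3 to 18 without OE_8wk 2.

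Fatty acid oxidation genes had a median of −0.01, with 3 of 18 rising and 1 falling, and a median of −0.23 with 4 falling without the 3 libraries. Cpt1a and Cpt1b, the carnitine palmitoyltransferases that admit fatty acids to mitochondria, rose by 0.59 ± 0.08 (5.43e-04) and 1.64 ± 0.24 (6.98e-04). Of 23 cholesterol synthesis genes 5 rose and 0 fell, with a median of 0.28. Dhcr7, which makes the last step to cholesterol, had 58.0, 65.9, 83.5 and 58.1 CPM at 20 weeks and 39, 19.1, 20.2 and 24 CPM at 8 weeks (1.38 ± 0.29, 0.00466). The count was 3 without OE_8wk 2 and 2 without OE_20wk 4 or OE_8wk 3. Insulin signalling genes split, with 4 of 19 rising and 6 falling: Ptpn1, a phosphatase that turns off the insulin receptor, rose by 0.83 ± 0.16 (0.00247), and Irs1, the receptor's substrate, fell (−1.03 ± 0.24, 0.00739). The 6 that fell became 3 without OE_20wk 4 or OE_8wk 3.

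Antioxidant and glutathione transferase genes fell in 12 of 24 cases and rose in 1, with a median of −0.54. Gsta3, a glutathione transferase, had 33.7, 17.7, 17.2 and 11.8 CPM at 20 weeks and 115, 67.0, 125 and 113 CPM at 8 weeks (−2.38 ± 0.33, 5.35e-04), and Gstm2 fell by 1.03 on the log2 scale (7.86e-04). The riser was Hmox1, haem oxygenase of iron-handling macrophages (1.64 ± 0.24, 6.61e-04). Without OE_20wk 4, 6 fell, and without OE_20wk 1, 4 rose. Acute phase genes fell in 4 of 18 cases and rose in 2, Hp by 1.05 ± 0.26 (0.0116) and Saa1, which had a mean of at most 0.386 CPM at either age. Of the 15 thermogenic genes 3 rose and 2 fell, and the risers Ucp1, Elovl3 and Dio2 were all low, with means of 0.398, 2.24 and 4.09 CPM at 20 weeks. Without the 3 libraries 1 rose and 4 fell, Dio2 was not called (adjusted p = 0.0603), and the list's median turned from 0.06 to −0.19; 4 also fell without OE_20wk 1, and 1 without OE_20wk 2, OE_20wk 4 or OE_8wk 3.

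Mesothelial genes, which mark the lining of the fat pad, fell in 10 of 12 cases with 0 rising and a median of −1.68. Upk3b, an uroplakin of mesothelium, had 25, 45.1, 14.8 and 42.4 CPM at 20 weeks and 147, 72.8, 123 and 85.3 CPM at 8 weeks (−1.75 ± 0.38, 0.00511). Lrrn4 had 9.16, 16.2, 5.47 and 15.8 CPM against 45.7, 30.0, 40.9 and 28.0 CPM (−1.63 ± 0.36, 0.00521), and Upk1b fell by 1.77 on the log2 scale (0.00533). All of the older libraries lay below all of the younger ones for these 3 genes. Of the list, 9 or 10 members fell when any of the 3 libraries that stood apart, or all of them, were left out. The count was 7 without OE_20wk 2 or OE_20wk 3.

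Smooth muscle and pericyte genes fell in 8 of 16 cases and rose in 1, with a median of −1.65. But 1 fell without OE_8wk 2, OE_20wk 2, OE_20wk 3 or OE_20wk 4, and 4 fell without the 3 libraries. The summed level was 4854 CPM in OE_8wk 2, whereas the other 7 libraries lay at 698 to 1494 CPM. Tagln, the smooth muscle protein transgelin, had 64.9, 38.3, 31.6 and 43.2 CPM at 20 weeks and 69.7, 510.3, 183 and 142 CPM at 8 weeks (−2.34 ± 0.67, 0.0212). It was not called without OE_8wk 2 (−1.56, 0.0740), nor without OE_20wk 2, 3 or 4 (adjusted p = 0.0613 to 0.0643). Pericyte genes moved apart: Rgs5 fell (−0.87 ± 0.20, 0.00736) while Cspg4, the NG2 proteoglycan, rose by 0.96 ± 0.21 (0.00467), both with no overlap and both called without OE_8wk 2. Of the epididymal genes Crisp1, a secreted sperm-binding protein gene, had 0.718, 2418, 3.11 and 14.6 CPM at 8 weeks and at most 2.07 CPM at 20 weeks, and its log2 fold change of −9.78 ± 3.07 was −3.17 (0.284) without OE_8wk 2 and not called without any 1 of the 20-week libraries.

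Endothelial genes fell in 4 of 16 cases with a median of −0.43, in 10 without OE_20wk 1 and in 0 without OE_20wk 2. Stromal progenitor genes had a median of 0.00, with 2 of 16 rising (4 without OE_8wk 2) and 2 falling. Lum, the matrix proteoglycan lumican, had 357, 325, 371 and 468 CPM at 20 weeks and 132, 198, 156 and 173 CPM at 8 weeks (1.21 ± 0.15, 3.65e-04), and Dpp4, which marks early progenitors, fell (−0.83 ± 0.19, 0.00750; −0.81 and 0.0523 without the 3 libraries). Collagen and matrix genes rose in 3 of 28 cases and fell in 2. Thbs2, thrombospondin-2, rose by 1.45 ± 0.26 (0.00170), Lox, lysyl oxidase, by 0.75 ± 0.15 (0.00310), and Eln, elastin, fell from 200, 381, 257 and 338 CPM to 147, 87.0, 109 and 125 CPM (−1.33 ± 0.24, 0.00184). The fibrillar collagen genes Col1a1, Col1a2 and Col3a1 were not called, at 0.40 to 0.54, and 7 genes of this list rose without the 3 libraries. Genes of fat pad growth fell in 5 of 18 cases. Plagl1, an imprinted zinc finger gene, had 36.4, 18.6, 25.2 and 17.2 CPM at 20 weeks and 102, 76.0, 88.5 and 98.6 CPM at 8 weeks (−1.90 ± 0.24, 3.43e-04), and Igf2, an imprinted growth factor gene, fell by 1.79 on the log2 scale (0.00330).

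**Figure D4:**
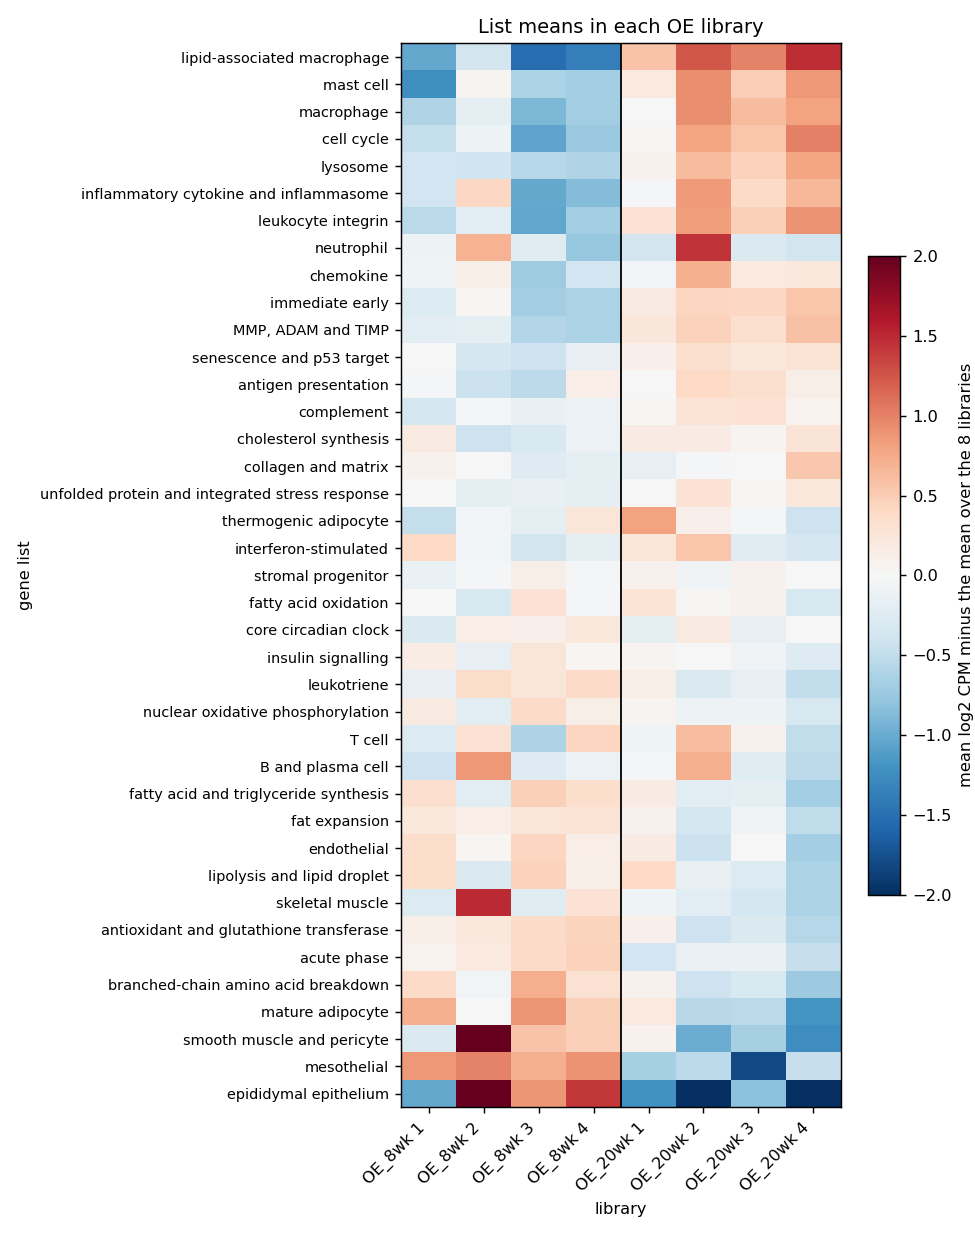
Mean log2 CPM of each gene list in each OE library, minus that list's mean over the 8 libraries, with 8-week libraries on the left and 20-week libraries on the right. Macrophage, lysosome and cell cycle lists are red on the right in OE_20wk 2 to 4 and near the list mean in OE_20wk 1. The mesothelial list is red on the left. The mature adipocyte list is too, except in OE_8wk 2, which is near the list mean and below OE_20wk 1. OE_8wk 2 also stands out in the smooth muscle, skeletal muscle and epididymal rows.

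Whether these age differences were particular to OE was asked with the Ctrl libraries in the same fit. In Ctrl, 3770 genes (19.6%) were higher at 20 weeks and 4083 (21.3%) lower. Of the genes that rose in OE, 2303 (91.8%) also rose in Ctrl, which is 61.1% of the Ctrl rises. Of those that fell in OE, 1604 (84.3%) also fell in Ctrl, 39.3% of the Ctrl falls, and 0 were called in opposite directions. The log2 fold changes of OE and Ctrl had a Pearson r of 0.810 and a Spearman rho of 0.856 across genes, which are not independent replicates. The 2 comparisons share no library but share the estimate of spread. Itgad rose by 5.88 ± 0.54 in Ctrl, Mmp12 by 4.78 ± 0.89, and Cfd had a log2 fold change of −4.34 ± 0.49. The differences, OE minus Ctrl, were −0.97 ± 0.65 for Itgad (unadjusted p = 0.157), 0.32 ± 1.08 for Mmp12 (0.772) and 0.45 ± 0.60 for Cfd (0.472).

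No gene was called for a difference between the genotypes in its age change (0% of those tested) with edgeR, and the smallest adjusted p was 0.982. At an unadjusted p under 0.05 there were 650 genes (3.39%), voom called 0 and DESeq2 called 20 with a larger and 10 with a smaller change in OE. Without OE_20wk 4, edgeR called 3 smaller. For Lta4h the age change was −0.38 ± 0.19 in OE relative to Ctrl (unadjusted p = 0.0737), and its Ctrl change was −0.02 ± 0.14.

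Among the 10 genes with the smallest p for this difference, none of them called, Gpr34, a lysophosphatidylserine receptor of macrophages and mast cells, had an age change of 1.06 ± 0.15 in OE and 2.17 ± 0.15 in Ctrl. Fras1, an extracellular matrix protein of epithelial basement membranes, had 2.26, 2.42, 1.28 and 3.20 CPM at 20 weeks and 16.4, 9.72, 10.9 and 9.98 CPM at 8 weeks in OE (−2.36 ± 0.34), against −0.32 ± 0.32 in Ctrl. Nrcam, a neuronal adhesion molecule, changed by 1.46 ± 0.21 in OE and 2.83 ± 0.22 in Ctrl, and Bhlhe40, a clock-linked repressor, by 0.44 ± 0.17 (not called) and −0.73 ± 0.17. The complement genes C1s1 and C1rb were at −0.09 ± 0.08 and 0.03 ± 0.10 in OE, against 0.40 ± 0.08 and 0.64 ± 0.10 in Ctrl. The others were Adgrd1, Usp10, Fgl1 and Lgals7, and the adjusted p of all 10 was 0.982.

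The medians of some lists are given side by side for the genotypes, with no call for any member's difference. Those of the epididymal list were furthest apart, at −4.95 in OE and −10.12 in Ctrl. B and plasma cell genes had a median of −0.30 in OE and 2.21 in Ctrl, where 14 of 17 rose, and 10 of the 17 had an unadjusted p under 0.05 for the difference. Ctrl_20wk 1 stood apart in this list, at a mean of 4.59 log2 CPM where the other 3 older Ctrl libraries had 2.12 to 2.96. T cell genes had −0.27 and 0.81, and 2 of the 20 had such a p. Ctrl_20wk 1 stood apart here too, at a mean of 2.63 log2 CPM where the other older Ctrl libraries had 0.88 to 1.31. Mesothelial genes had −1.68 in OE and −0.06 in Ctrl, where 3 of 12 fell, and 8 of the 12 had such a p. Mast cell genes had 1.63 and 3.01, with 6 of 12, and cholesterol synthesis genes 0.28 and −0.36, with 9 of 23. In the mast cell list Ctrl_8wk 1 had a mean of 0.47 log2 CPM, where the other younger Ctrl libraries had 1.69 to 2.28. In the mesothelial list Ctrl_8wk 1 had a mean of 3.75 log2 CPM, where the other younger Ctrl libraries had 4.48 to 5.09. Ctrl_20wk 4 had 4.73 in that list, where the other older Ctrl libraries had 3.55 to 4.01. Lipid-associated macrophage genes, at 1.94 and 2.46, lysosomal genes, at 0.97 and 1.04, and mature adipocyte genes, at −0.78 and −1.15, had 0, 1 and 0 members with such a p. The summed epididymal level ran from 0.108 to 2.35 CPM at 20 weeks and from 1.78 to 4165 CPM at 8 weeks in Ctrl, and its part in these values was not tested.

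**Figure D5:**
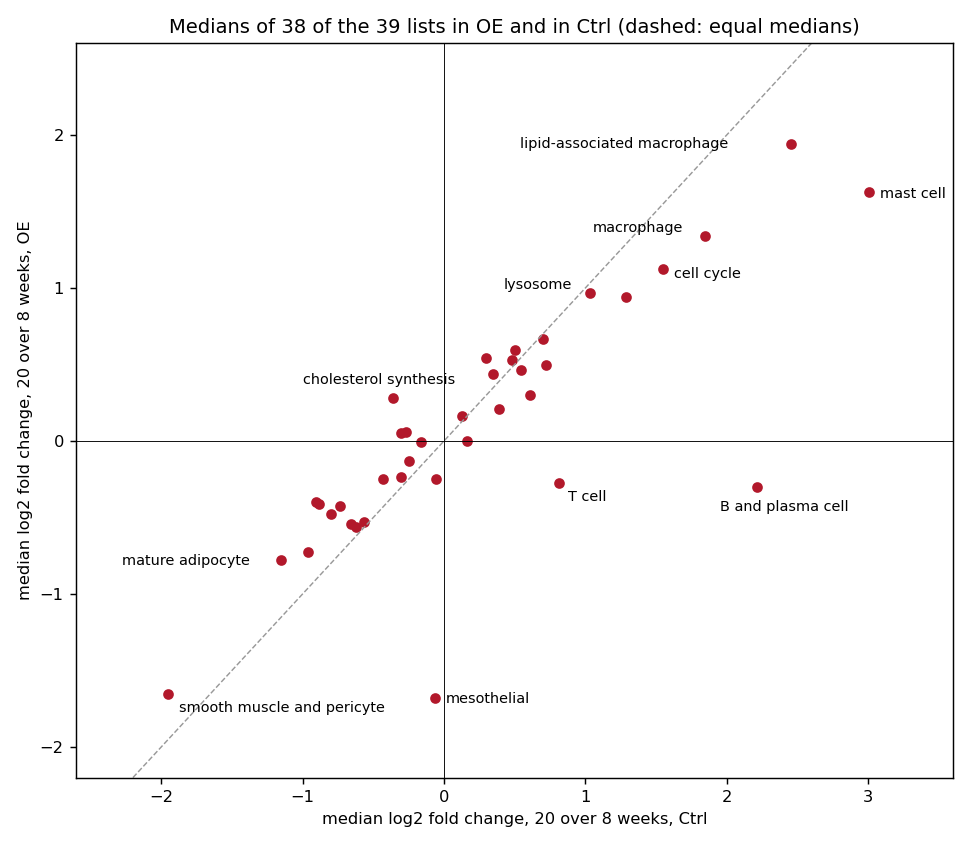
Median log2 fold change, 20 over 8 weeks, of 38 gene lists in OE against Ctrl, each point 1 list and the dashed line marking equal medians; the epididymal list lies outside the axes. Most lists lie near the line, while B and plasma cell genes (−0.30 in OE, 2.21 in Ctrl) and mesothelial genes (−1.68 and −0.06) lie below it.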

How the data were processed

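RNA of epididymal white adipose tissue was extracted with RNeasy and sequenced from TruSeq stranded mRNA libraries, per the labels' protocols. The authors deposited read counts per gene together with FPKM and TPM values for 16 libraries. Reads were demultiplexed with bcl2fastq 2.20.0, trimmed with Trimmomatic, aligned to mm10 with HISAT2 2.1.0 and assembled with StringTie 2.1.3b, per the submitters' processing notes. The annotation release and the strand setting of the counting are not given in the sources used here. The authors' TPM values were used only for levels and ranks, and the deposited FPKM values were not used.

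Genes were filtered with filterByExpr (minimum count 10) and scaled by TMM. A robust quasi-likelihood model (edgeR 4.0.16, R 4.3.3) was fitted to all 16 libraries (12 residual degrees of freedom), with contrasts for OE, Ctrl and their difference. P-values were Benjamini-Hochberg adjusted over all 19189 genes tested and called under 0.05, and standard errors are the log2 fold change over the root of its F statistic. Log2 CPM used a prior count of 2. On data simulated for the OE comparison over 18780 genes, 66.7% of 66 genes changed 4-fold, 47.8% of 67 changed 2-fold and 13.4% of 67 changed 1.5-fold were recovered, and 7.61% of the 92 calls were false. The simulation changed a far smaller share of genes than the 23% called in OE, so these rates need not hold for the real comparison. No pair of replicates was identical.

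The members and the 39 lists were chosen with earlier results of these data known. Of 751 list entries, 749 matched by symbol and 2 by an older symbol. Named genes were Lta4h, Itgad, Mmp12 and Cfd, the 12 rising and 12 falling genes with the highest fold change (called, ages not overlapping, mean log2 CPM not under 1, no predicted or clone names), up to 3 called members of each list with the smallest adjusted p, the leukotriene list, and the 10 genes with the smallest interaction p, 143 in all. Other genes named in the text were chosen after their values were seen. Reads of similar copies (Orm, Serpina3, Gst, H2 and tryptase genes) may be split between them. Promoter windows came from RefSeq (GRCm38.p6). Alternatives used DESeq2 1.42.0, limma 3.58.1 (voom) and sva 3.50.0, other scalings and filters, only the 8 OE libraries, a replicate block, and libraries left out. Some genes of the lists are counted but not reported by name here.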

Additional observations from a re-analysis of the deposited data

Results flagged for a closer look

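In 364 groups of 4 libraries, 17 held a highest or lowest library that lay far from the other 3, by the gap to the nearest other over the whole range. Chance gives about 1 in 20. OE_8wk 2 was the library in 6 of the 17. Pla2g4a had 29.7 CPM there against 11.6 to 12.5 CPM in the other 8-week libraries. Cd22 had 5.71 CPM against 1.05 to 1.26 CPM, Sesn1, a p53 target, 70.3 CPM against 52.4 to 54.9 CPM, and Myh15 1.43 CPM against 0 CPM. Gsta3 was lower there, at 67.0 CPM against 113 to 125 CPM, as was Ggt5, at 25.8 CPM against 28.6 to 28.9 CPM.

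Of the other 8-week libraries, OE_8wk 1 had 11.0 CPM of Tph2 against 1.15 to 1.57 CPM. OE_8wk 3 had 7.45 CPM of Casp1 against 13.2 to 13.8 CPM and 0 CPM of Gpr50 against 0.269 to 0.396 CPM.

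At 20 weeks, OE_20wk 1 had 123 CPM of Vwf, an endothelial gene, against 87.6 to 92.4 CPM, 48.9 CPM of Junb against 68.8 to 73.3 CPM and 9.79 CPM of Cysltr1 against 14.6 to 15.5 CPM. OE_20wk 2 had 1.83 CPM of Cysltr2 against 1.13 to 1.18 CPM, and its neutrophil list mean was 1.36 log2 CPM against −0.46 to −0.38. OE_20wk 3 had 22.2 CPM of S100a8 against 15.2 to 16.0 CPM, and a mesothelial list mean of 2.2 log2 CPM against 3.33 to 3.54. OE_20wk 4 had 8.95 CPM of Npas2, a clock gene, against 5.58 to 5.80 CPM.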

How the results depend on the processing

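No gene called both with the reported settings and under 1 of the 28 other settings changed direction, but uncalled genes and list medians near 0 did, and the neutrophil list median went from 0.60 to −0.70 without OE_20wk 2. The counts of genes higher and lower at 20 weeks (2509 and 1902) were 3983 and 3688 with voom, 722 and 209 when tested for more than a 1.5-fold change, and 3707 and 3671 without the 5 libraries that stood apart in both genotypes. The lower count was 1227 with 2 surrogate variables. Leaving out 1 library at a time gave 1719 to 3107 genes higher and 1014 to 2679 lower. For the difference between genotypes, DESeq2 called 20 larger and 10 smaller changes in OE, the fit without those 5 libraries called 1 larger, and leaving out 1 library gave 0 to 0 larger and 0 to 3 smaller. The cause of these shifts was not tested, except that fewer libraries enter some fits and a larger change is asked for in another. The replicate numbers do not pair the samples: the deviations of same-numbered libraries correlated at −0.57, −0.09, 0.08 and −0.30, and the replicate block gave 2262 higher, 1548 lower and 0 differing between genotypes. With 4 libraries per age, the test could miss small changes and changes in genes of a few reads, although some of both were called.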
